A study of Mus musculus with 8 samples.

Results

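The Wnt genes described here are 52 of the 24062 genes in an RNA-seq table, chosen by name. They are 19 Wnt ligands, 4 R-spondins, 10 Frizzled receptors, the co-receptors Lrp5 and Lrp6, the receptors Ror1, Ror2 and Ryk, 4 Dickkopf genes, 7 other secreted inhibitors (Sfrp1, Sfrp2, Sfrp4, Sfrp5, Frzb, Wif1 and Notum), and Axin2, Lef1 and Tcf7. With them stand 9 cytosines around the transcription start of Wnt7a, of 2361680 in a methylation table. The cells were clones of the mouse fibroblast line NIH3T3, measured by RNA-seq and by RRBS, a bisulfite method that samples CpG-rich fragments cut with MspI. The 14-3-3ε clones, numbers 10 and 12, stably carried a p3xFLAG-CMV-10 plasmid for FLAG-tagged 14-3-3ε, a protein that binds phosphorylated partners. The control clones, numbers 2 and 3, carried the vector. All were grown under G418 at 800 µg/mL in medium with 10% serum. Each clone is a line of its own, so 2 clones stand for each group in each assay, and differences between clones and an effect of 14-3-3ε are separated only weakly.

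Wnt ligands are secreted, lipid-modified proteins that bind Frizzled receptors. With Lrp5 or Lrp6 they stabilise β-catenin, which acts in the nucleus with Tcf and Lef factors, and through Ror and Ryk receptors they act without β-catenin. R-spondins keep the receptors at the cell surface. Dickkopf proteins bind the co-receptors, while Sfrp, Wif1 and Notum proteins act on the ligands. In fibroblasts the pathway is known for roles in matrix production and in the patterning of mesenchyme.

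Both tables hold the authors' own comparison and state no direction. Positive values were read as higher in 14-3-3ε clones, and every direction below rests on that reading. Ywhae, the mouse gene of 14-3-3ε, did not check it, at -0.03 on the log2 scale (SE 0.18, adjusted p = 0.942) in the authors' deposited table. Fibroblast markers had mean normalized counts (counts over size factors, averaged over the libraries) of 4843 to 167717 in the authors' deposited table. Markers of other cell types lay between 0.25 and 58.9 in the authors' deposited table, apart from the neural marker Map2 at 781, and none of these 11 was at 0. Of the fibroblast markers Col1a1, Col1a2, Pdgfra and Pdgfrb rose and 3 were not called, and Map2 and the muscle marker Des fell, by 1.36 and 1.28 in log2 units in the authors' deposited table. The part of these markers in the results below was not tested.

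The deposited means hold the counts of single libraries. A gene with 1 read in all has a mean equal to what 1 read is worth in its library, and 4 such values occurred, 0.232, 0.246, 0.250 and 0.270 mean normalized counts. For each gene with a mean above 0 and at most 1000, whole reads in 4 libraries were sought that give the deposited mean within at most 3.06e-12. Of 11931 genes, 11913 had 1 solution and 18 had several, and all 36 Wnt genes in this range had 1. The libraries are numbered 1 to 4 in the order of those values, and their size factors, which are relative depths, were 1.08, 1.01, 1.00 and 0.925. The solved genes held 2296595 to 2668132 reads a library. The labels do not tie the libraries to clones or groups, so their values are given singly in that order, without a mean or a test. The 8 Wnt genes with means above 1000 were not solved.

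Of the 52 Wnt genes, 7 rose, 1 fell and 10 were tested but not called at the authors' adjusted p under 0.05, which DESeq2 gave over 11482 genes. Over all tested genes 6.15% rose, 4.74% fell and 10.9% did either. Wnt5a, Wnt9a, Fzd1, Fzd2, Ryk, Dkk2 and Sfrp1 rose, so ligand, receptor and inhibitor genes were all among them, and Lef1 fell. The median log2 fold change of the 18 tested genes was 0.45, against -0.0027 for all tested genes. A further 26 had a mean above 0 and no adjusted p, and 8 were listed at 0. Less RNA per cell and fewer cells that express a gene cannot be told apart in such bulk samples. Counts are not per length, so no levels were compared between genes.

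**Figure D1:**
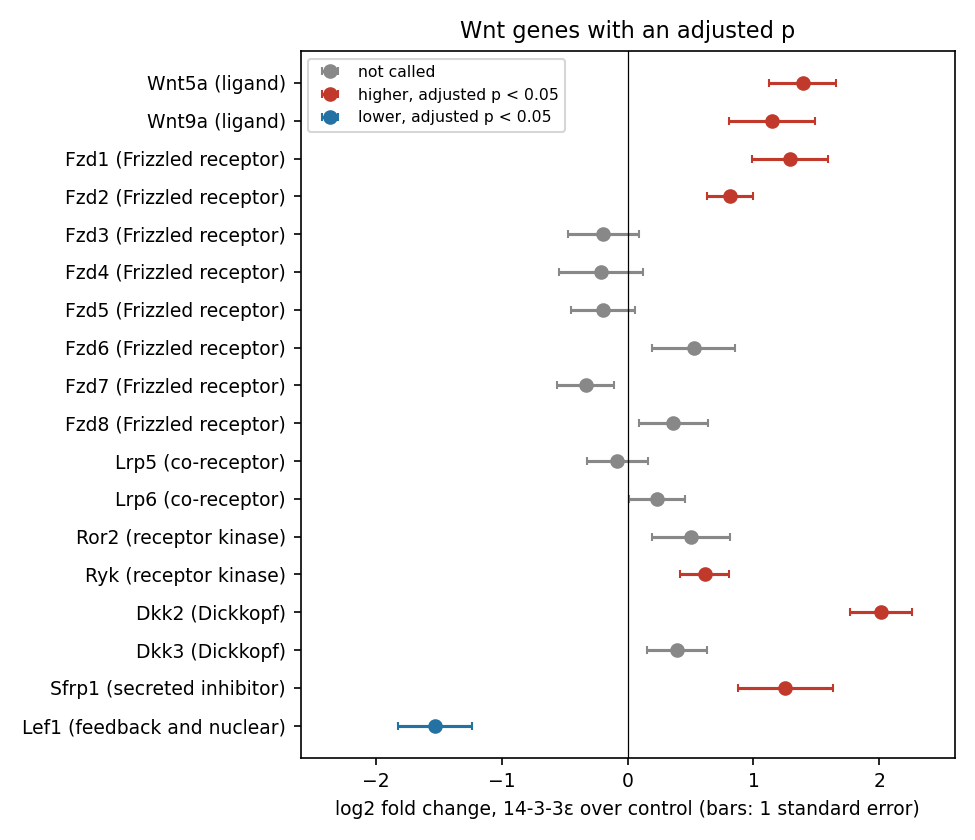
Log2 fold change, 14-3-3ε over control, of the 18 Wnt genes with an adjusted p, with bars of 1 standard error, from the authors' deposited table. Dkk2 lies highest at 2.01 and Lef1 lowest at -1.53, and the 10 genes not called lie between -0.33 and 0.53.

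Both ligand genes that were tested rose. Wnt5a, whose product is best known for signalling without β-catenin, lies on chromosome 14 from 28504543 to 28527448 in build mm10. It was 2.62-fold higher in 14-3-3ε clones in the authors' deposited table, at 1.39 on the log2 scale (SE 0.26, adjusted p = 1.02e-05) and a mean normalized count of 1627. Wnt9a, a ligand gene of joint development, lies on chromosome 11 from 59306849 to 59333552. Its normalized counts were 343, 770, 152 and 234 in libraries 1 to 4. Library 2 was the highest and library 3 the lowest, 5.06-fold apart. The comparison gave 1.15 on the log2 scale (SE 0.34, adjusted p = 0.0134), or 2.21-fold, in the authors' deposited table. The long non-coding RNA gene Gm51865 lies within the span of Wnt9a, so reads in that overlap are of uncertain origin.

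None of the other 17 ligand genes had an adjusted p, and Wnt2, Wnt3a, Wnt9b and Wnt16 were listed at 0. Wnt10b had the most reads, 40, 24, 27 and 24 in libraries 1 to 4, and Wnt4 had 15, 13, 13 and 19. Wnt2b had 5, 13, 15 and 8 reads. These 3 genes were read in every library, and the authors' deposited table put them at 0.11, -0.13 and -0.13 in log2 units. Wnt7b had 3, 21, 2 and 2 reads, with most in library 2. Wnt11, a ligand gene also known for signalling without β-catenin, had 5, 6, 0 and 0 reads, and Wnt7a had 1, 1, 0 and 0. Wnt7b, Wnt11 and Wnt7a, named after their values were seen, were at 0.41, 0.29 and 0.07 in log2 units in the authors' deposited table, and at this depth no difference was detectable.

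R-spondin genes were barely read. Rspo2 had 6, 15, 1 and 2 reads in libraries 1 to 4, Rspo1 had 2 reads, both in library 2, and Rspo3 and Rspo4 were listed at 0. None had an adjusted p. Among the genes of R-spondin receptors and receptor turnover, none of 3 tested was called.

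Of 8 tested Frizzled genes 2 rose, and the other 6 were not called. Fzd1, on chromosome 5 from 4753839 to 4758216, was 2.45-fold higher in the authors' deposited table, at 1.29 on the log2 scale (SE 0.30, adjusted p = 0.000671). Fzd2, on chromosome 11 from 102604431 to 102608058, was 1.76-fold higher in the authors' deposited table, at 0.81 on the log2 scale (SE 0.19, adjusted p = 0.000456). Fzd7, close to both in protein sequence, had normalized counts of 756, 779, 864 and 1113 in libraries 1 to 4. It was not called in the authors' deposited table, at -0.33 on the log2 scale (adjusted p = 0.387), and whether it differs from Fzd1 and Fzd2 was not tested.

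Other receptor genes varied mostly through 1 library. Fzd6 had normalized counts of 468, 1080, 541 and 428, and Ror2, a receptor kinase gene for Wnt5a, had 701, 1472, 702 and 714. In both, library 2 stood above the other 3, which lay closer together. Fzd4 had 676, 291, 520 and 649, with library 2 the lowest. Fold changes in log2 units in the authors' deposited table were 0.53 for Fzd6, 0.50 for Ror2 and -0.21 for Fzd4. None was called in the authors' deposited table, with adjusted p of 0.332, 0.316 and 0.759 for Fzd6, Ror2 and Fzd4.

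Fzd3, Fzd5 and Fzd8 were more even across libraries. Fzd3 had normalized counts of 858, 550.0, 688 and 964 in libraries 1 to 4, Fzd5 had 588, 587, 565 and 805, and Fzd8 had 237, 245, 190 and 170. The highest library was 1.75-fold above the lowest for Fzd3, 1.42-fold for Fzd5 and 1.45-fold for Fzd8. They were at -0.20, -0.20 and 0.36 in log2 units in the authors' deposited table, with adjusted p of 0.737, 0.702 and 0.448. Fzd10 had 1 read, and Fzd9 was listed at 0.

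Neither co-receptor gene was called. Lrp5 was at -0.08 and Lrp6 at 0.23 in log2 units in the authors' deposited table, with adjusted p of 0.883 and 0.568. Ryk, whose product binds Wnt5a and has an inactive kinase domain, rose 1.53-fold in the authors' deposited table, or 0.61 on the log2 scale (SE 0.20, adjusted p = 0.0251), the smallest change among the 8 called Wnt genes. It lies on chromosome 9 from 102834920 to 102908307. Ror1 had 2, 12, 22 and 1 reads in libraries 1 to 4, with no adjusted p.

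**Figure D2:**
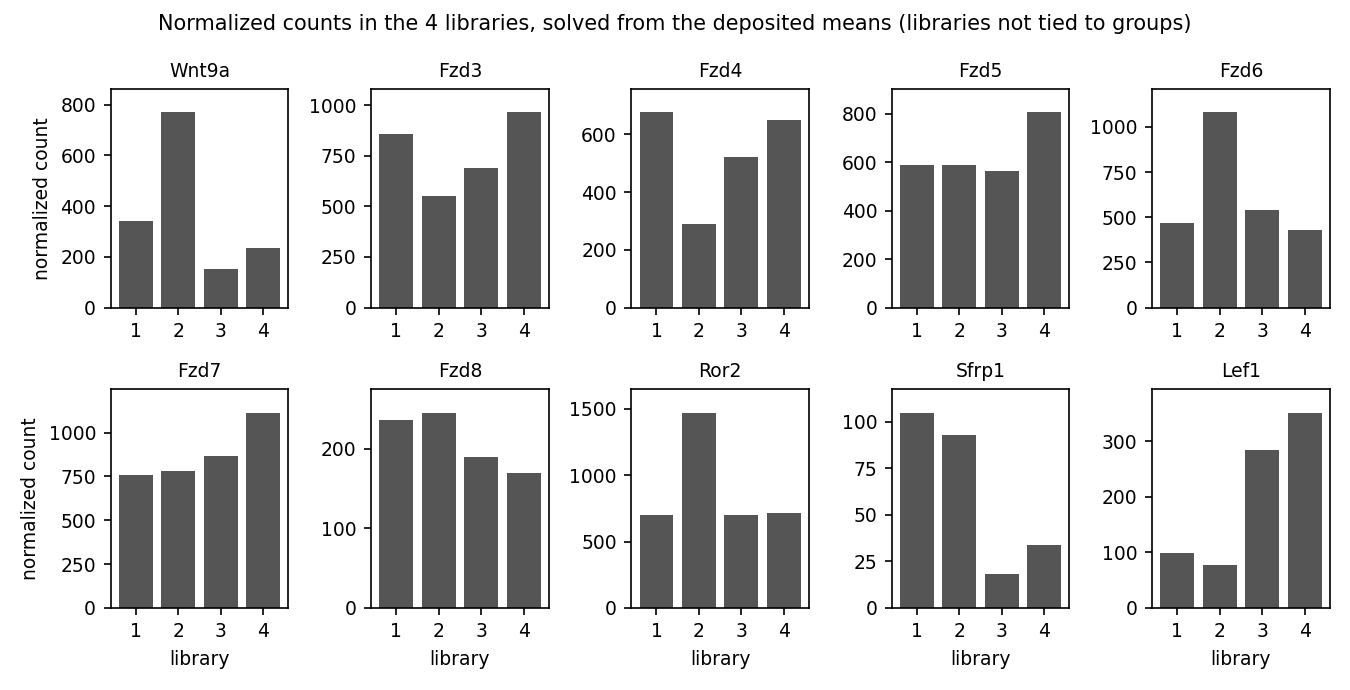
Normalized counts (linear axes from 0) of the 10 solved Wnt genes with an adjusted p, with 1 bar for each of the 4 libraries, which the labels do not tie to groups. Fzd6 and Ror2 are high in library 2 alone, at 1080 and 1472, while Fzd5 and Fzd8 are nearly even.

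Dkk2 had the largest change of the Wnt genes. Its product binds Lrp5 and Lrp6, and it lies on chromosome 3 from 132085266 to 132180304. It was 4.04-fold higher in 14-3-3ε clones in the authors' deposited table, at 2.01 on the log2 scale (SE 0.25, adjusted p = 2.43e-13) and a mean normalized count of 3570. Dkk3, a divergent member of the family, was at 0.39 (adjusted p = 0.309) in the authors' deposited table and was not called. Dkk1 had 3 reads and Dkk4 had 1.

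Sfrp1 was the single gene tested among the 7 inhibitors that act on ligands, and it rose. The gene lies on chromosome 8 from 23411383 to 23449632. Its normalized counts were 105, 92.7, 18.0 and 33.5 in libraries 1 to 4, highest in library 1 and lowest in library 3, 5.82-fold apart. The comparison gave 2.38-fold, or 1.25 on the log2 scale (SE 0.38, adjusted p = 0.0144), in the authors' deposited table. Deposited log2 fold changes stayed small in genes with few reads, from -0.13 to 0.63 in the 26 with a mean above 0 and no adjusted p. The settings behind them are not given, and whether they understate differences was not tested. Sfrp2 had 39, 2, 7 and 2 reads, most of them in library 1, and Sfrp4 had 11, 4, 1 and 0. Frzb, Wif1 and Notum had 3, 6 and 1 reads in all, and Sfrp5 was listed at 0.

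Of the 3 genes of feedback and the nucleus, Lef1 was tested, and it fell. Lef1 encodes a factor that brings β-catenin to target genes, and lies on chromosome 3 from 131110297 to 131224357. Its normalized counts were 99.3, 77.9, 284 and 352 in libraries 1 to 4, highest in library 4 and lowest in library 2. It fell to 0.346 of the control level in the authors' deposited table, at -1.53 on the log2 scale (SE 0.30, adjusted p = 1.69e-05). Axin2, a feedback inhibitor often used to read out β-catenin activity, had 10, 11, 2 and 0 reads. Tcf7, a relative of Lef1, had 14, 12, 1 and 1. Neither had an adjusted p, and both are named after their values were seen. Tcf7 was at 0.63 and Axin2 at 0.43 in log2 units in the authors' deposited table, with unadjusted p of 0.0585 and 0.144, so no difference was called.

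Among the 26 weakly read Wnt genes, 14 had under 10 reads in the 4 libraries together, and the highest total was 115. Their log2 fold changes ran from -0.13 to 0.63 in the authors' deposited table, with 17 above 0. None had an unadjusted p under 0.05 in the authors' deposited table.

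**Figure D3:**
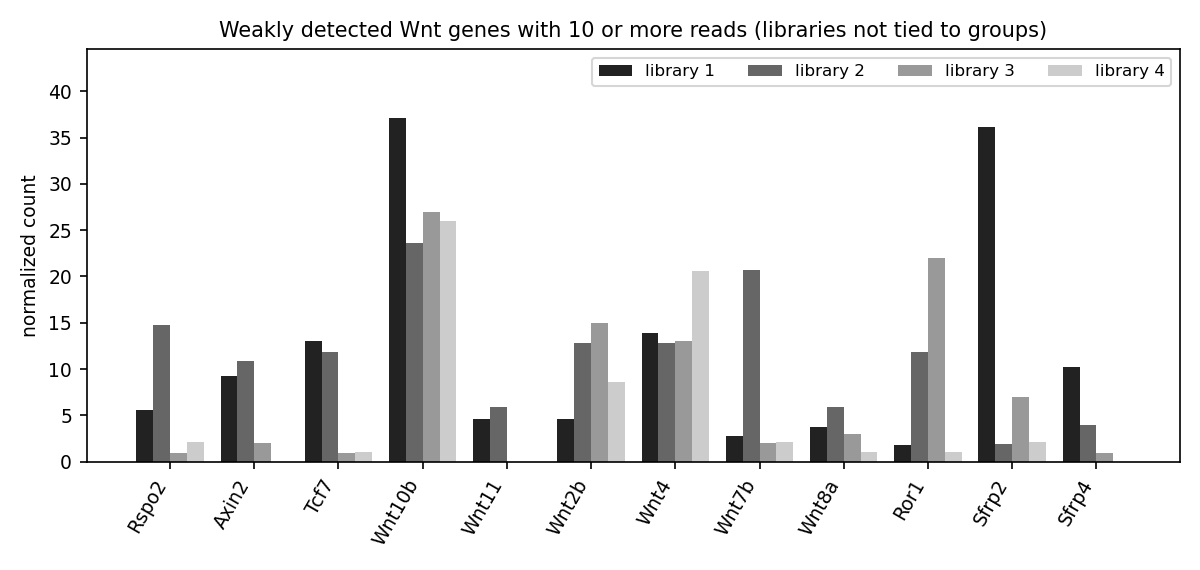
Normalized counts (linear axis from 0) of the 12 Wnt genes without an adjusted p that had 10 or more reads, with 1 bar for each of the 4 libraries, which the labels do not tie to groups. Wnt10b and Wnt4 are read in all 4, Wnt7b is high in library 2 and Sfrp2 in library 1.

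Of 74 other genes of the pathway, 56 had an adjusted p, and 9 rose and 4 fell, with a median log2 fold change of 0.04. Over all tested genes 6.15% rose and 4.74% fell, and these shares belong beside each list below. In ligand secretion, Wls, which carries Wnt proteins to the surface, rose by 0.82 in log2 units in the authors' deposited table (adjusted p = 0.000799), and Porcn was not called. Of 5 tested genes of cell-surface modulators 2 rose. Kremen1, a Dickkopf receptor gene, rose by 0.76 and the glypican gene Gpc4 by 1.26 in log2 units in the authors' deposited table, with adjusted p of 0.00198 and 0.00451.

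Of 12 nuclear genes 3 rose and none fell. Tle2, a corepressor gene of the Groucho family, rose by 1.97 in log2 units in the authors' deposited table (SE 0.26, adjusted p = 7.34e-12). Tcf7l1 and Tcf7l2, relatives of Lef1, rose by 0.77 and 0.74 in log2 units in the authors' deposited table, with adjusted p of 0.00877 and 0.0448. Tcf7l2 was no longer called when p-values were adjusted over all 17478 genes with one, at 0.0674.

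Of 13 genes listed for the complex that degrades β-catenin, 1 rose and 1 fell. The list is wider than the complex, with Ctnnb1, the gene of β-catenin itself, and the regulator genes Tnks and Tnks2. Apc2 rose by 0.84 and the kinase gene Csnk1e fell by 0.74 in log2 units in the authors' deposited table, with adjusted p of 0.0423 and 0.0107. Apc2 was no longer called with the adjustment over 17478 genes, at 0.0637. Of 6 tested genes of the Dishevelled group, Frat2, which encodes a Gsk3-binding protein, fell by 1.05 in log2 units in the authors' deposited table (adjusted p = 0.0189). In planar polarity, with 9 genes tested, Prickle1 rose by 0.66 and Scrib fell by 0.54 in log2 units in the authors' deposited table, with adjusted p of 0.0303 and 0.0466, and Scrib was no longer called with the wider adjustment, at 0.0701. Of 6 tested genes reported as targets, Wisp1 rose by 0.68 and the cyclin gene Ccnd1 fell by 0.89 in log2 units in the authors' deposited table, with adjusted p of 0.0175 and 1.67e-05. The median log2 fold change of these 6 was -0.61. Myc, Id2 and Cd44 were at -0.77, -0.88 and -0.45 and Twist1 at 0.17 in the authors' deposited table, and none of these was called.

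In the methylation comparison, 3 of 9 cytosines around the start of Wnt7a were lower in 14-3-3ε clones and 6 were not called. Wnt7a is a ligand gene of limb and nervous system development on the minus strand of chromosome 6, and the stretch was chosen with earlier results of these data known, so its values are a description. Calls were at q under 0.05, none was higher, and the 9 cytosines within 1000 bp of the start had a mean difference of -21.8 percentage points in the authors' deposited table. The mean was -13.6 points within 500 bp and -11.9 within 2000 bp in the authors' deposited table, and 1 cytosine was lower at q under 0.01 or within 500 bp. Of all listed cytosines 1.92% were higher, 2.83% lower and 4.74% either, and of those within 1000 bp of the starts or ends of 22547 genes 1.49% were higher, 1.95% lower and 3.44% either. All 9 lay 371 to 646 bases downstream of the start. The annotation used gives no exons, so the position is given as inside the gene.

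The called cytosines of Wnt7a were at 91410733, 91410731 and 91410971. They differed by -44.7, -41.1 and -33.0 points in the authors' deposited table, with q of 0.00227, 0.0248 and 0.0253. Between and beside them, positions 91410741, 91410753 and 91410969 differed by -34.6, -28.6 and -24.2 points in the authors' deposited table and were not called. The other 3, at 91410707, 91410981 and 91410982, differed by 6.64, 5.56 and -2.53 points in the authors' deposited table. The lower values thus lay in 2 short stretches. Of the 9 cytosines 8 were on the minus strand, and neighbours share reads, so they are not separate observations. Of the other 39 cytosines inside Wnt7a 1 was higher and 2 were lower, with a mean of -1.49 points in the authors' deposited table. The 2 lower ones, at 91394579 and 91394591, differed by -32.8 and -30.5 points, with q of 1.44e-06 and 2.25e-05. The higher one, at 91400575, differed by 25.1 points, with q of 0.0043. Lower calls inside Wnt7a were thus not confined to its start. Inside all matched genes 1.75% were higher, 2.45% lower and 4.2% either.

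**Figure D4:**
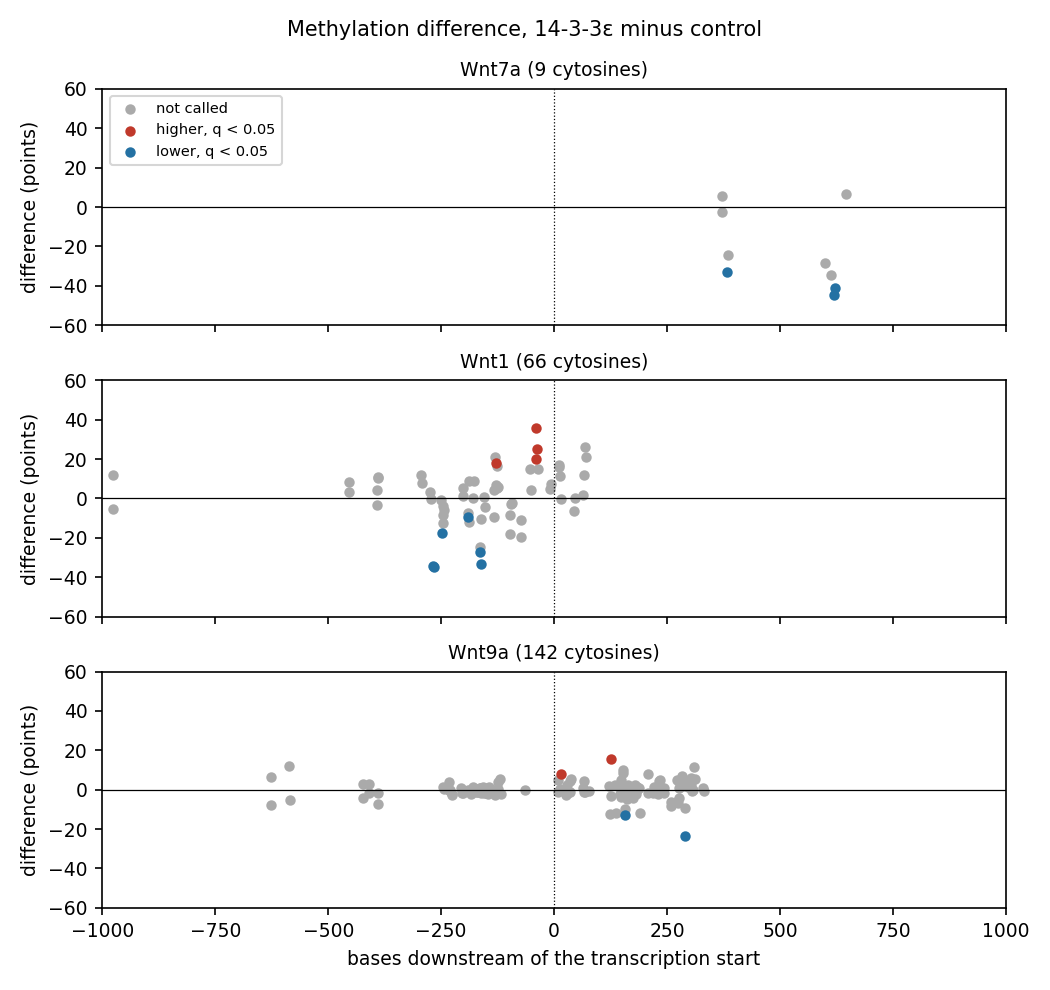
Methylation difference in percentage points, 14-3-3ε minus control, of each listed cytosine within 1000 bp of the transcription start of Wnt7a, Wnt1 and Wnt9a, against bases downstream of the start, from the authors' deposited table. Wnt7a cytosines reach -44.7 points and all lie downstream, and Wnt1 holds lower calls and then higher calls before its start.

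The same was read at all 52 genes, within 1000 bp of the transcription starts of 35 and of both annotated ends of the other 17. Of 4669 cytosines there 97 were higher and 136 lower, 4.99% in all, against 3.44% near the starts or ends of all matched genes. Around the 10 genes tested but not called in RNA-seq 2.78% were called, and around the 34 without an adjusted p 6.64%. Means of 48 of the 49 genes with listed cytosines lay within 5 points of 0. The exception was Wnt7a, which had the fewest listed cytosines of the 49, at 9, and was chosen with earlier results known. Wnt8b, Wnt16 and Dkk4 had none listed.

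Around the 8 genes whose transcripts changed, the share of called cytosines, 3.51%, was near the 3.44% of all matched genes. Wnt5a had 2 higher and 1 lower of 38, Wnt9a 2 and 2 of 142, Fzd1 1 and 1 of 147, and Fzd2 2 and 2 of 93. Ryk had 1 higher of 84, Dkk2 had 1 lower of 28, and Lef1 had 1 higher and 2 lower of 129. Sfrp1 had 4 higher and 5 lower of 108, and all 108 averaged 3.70 points in the authors' deposited table, the highest mean of the 49 genes with listed cytosines. Its differences ran from -22.6 to 40.8 points in the authors' deposited table. The 5 lower calls lay among 6 cytosines from 23411461 to 23411466 on chromosome 8, and the 6 averaged -15.7 points in the authors' deposited table. The highest share among these 8 was thus that of Sfrp1, with calls of both directions.

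Sfrp2 had the most called cytosines, 17 of 105. Fzd4, Notum and Wnt10a had 12 each, Wnt3a had 11, and Wnt1 and Wnt2 had 10 each. All of these held calls of both directions. In Sfrp2, 5 cytosines from 83765957 to 83765967 on chromosome 3 were higher, and all 6 listed there averaged 27.4 points in the authors' deposited table. Next to them 4 from 83765982 to 83766027 were lower, and all 11 listed there averaged -10.7 points in the authors' deposited table. At Wnt10a on chromosome 1, there were 3 lower calls among 11 cytosines from 74792103 to 74792167, which averaged -11.3 points in the authors' deposited table. At its other end 5 of 6 from 74803980 to 74804017 were higher, and the 6 averaged 25.05 points in the authors' deposited table. Notum, on chromosome 11, had 5 higher calls among 18 cytosines from 120660638 to 120660733, which averaged 9.21 points in the authors' deposited table.

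Runs of at least 3 calls of 1 direction within 100 bases of each other were defined after values were seen. Their frequency over all genes was not computed. Many Wnt genes held such runs, with lower ones also at Wnt2, Wnt3a, Rspo2, Rspo3, Fzd6, Lrp5, Frzb and Tcf7. Ror1 and Fzd4 held higher ones, and Wnt1 held both kinds. In Wnt2 the 4 lower calls averaged -46.0 points in the authors' deposited table. The calls of Wnt7a formed no such run. The next 3 genes were picked from the genes with runs. Beyond the higher annotated end of Wnt7b, all 6 listed cytosines from 85582791 to 85582803 on chromosome 15 were lower, by 20.6 to 37.1 points in size, in the authors' deposited table. At Wnt11, 4 of 13 cytosines from 98834874 to 98834962 on chromosome 7 were lower, and the 13 averaged -17.3 points in the authors' deposited table. At Rspo4, 6 of 10 cytosines from 151843042 to 151843113 on chromosome 2 were higher, and the 10 averaged 15.1 points in the authors' deposited table. Whether methylation and transcripts are related at these genes was not tested.

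**Figure D5:**
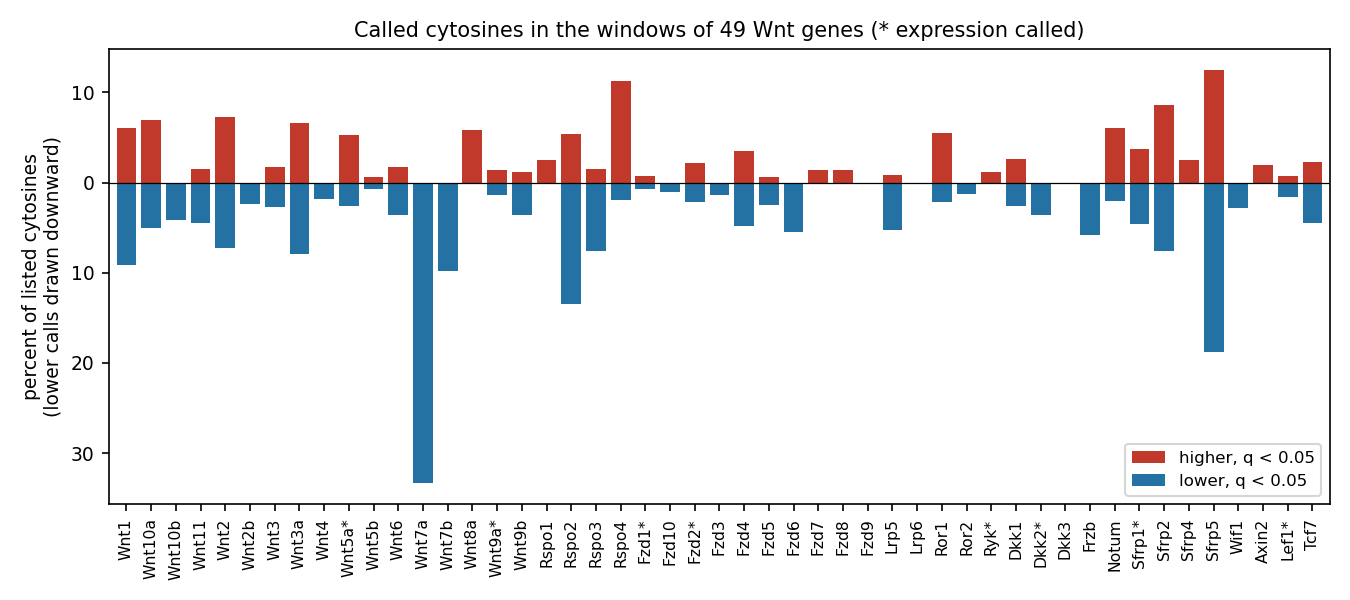
Percent of listed cytosines called higher (upward) and lower (downward) at q under 0.05 around each of the 49 Wnt genes with listed cytosines, with asterisks at the 8 genes whose expression was called. Wnt7a has the largest share of lower calls, 3 of 9.

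RefSeq promoters (GRCm38.p6, the assembly of mm10), from 250 bases before to 50 after a start, matched 35 of the 52 genes with 42 starts. All 737 cytosines listed in them fell on a CG of the sequence. The first 4 are shown because they place the calls near starts, and capitals mark each CpG with a called cytosine on either strand. Wnt1 (chr15:98789607-98789906, plus strand) had 4 higher and 4 lower calls of 48, and Wnt2 (chr6:18030396-18030695, minus strand) 4 and 4 of 45. Wnt11 (chr7:98834862-98835161, plus strand) had 4 lower of 16, and Wnt9a (chr11:59306680-59306979, plus strand) 1 higher of 65.
Wnt1: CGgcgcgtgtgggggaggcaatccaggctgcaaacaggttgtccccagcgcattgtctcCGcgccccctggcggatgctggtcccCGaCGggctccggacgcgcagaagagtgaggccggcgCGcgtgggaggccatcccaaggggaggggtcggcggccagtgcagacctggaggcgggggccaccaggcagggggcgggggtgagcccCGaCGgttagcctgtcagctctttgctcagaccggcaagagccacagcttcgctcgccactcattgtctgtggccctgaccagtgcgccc
Wnt2: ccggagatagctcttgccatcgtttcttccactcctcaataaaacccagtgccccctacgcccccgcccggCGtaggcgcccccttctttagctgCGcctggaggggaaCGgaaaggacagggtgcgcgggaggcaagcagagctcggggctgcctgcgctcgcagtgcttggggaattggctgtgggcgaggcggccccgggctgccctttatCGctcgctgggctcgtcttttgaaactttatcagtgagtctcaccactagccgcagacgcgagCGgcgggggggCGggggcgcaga
Wnt11: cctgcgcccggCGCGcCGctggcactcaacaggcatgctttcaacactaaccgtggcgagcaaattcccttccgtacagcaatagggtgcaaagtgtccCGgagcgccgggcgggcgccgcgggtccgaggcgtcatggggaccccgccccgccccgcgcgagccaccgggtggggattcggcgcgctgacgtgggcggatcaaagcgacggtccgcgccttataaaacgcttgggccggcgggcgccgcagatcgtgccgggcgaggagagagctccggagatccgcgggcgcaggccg
Wnt9a: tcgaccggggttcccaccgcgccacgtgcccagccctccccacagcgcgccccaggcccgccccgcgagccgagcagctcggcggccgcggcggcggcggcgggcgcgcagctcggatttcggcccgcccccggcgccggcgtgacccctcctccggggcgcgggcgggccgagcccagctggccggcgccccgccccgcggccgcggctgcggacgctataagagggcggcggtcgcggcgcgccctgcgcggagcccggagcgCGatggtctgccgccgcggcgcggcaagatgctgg
In Wnt11, 3 of the 4 marked CpGs lie at the end far from the start. In Wnt1 the lower calls lie farther from the start than the higher ones. Wnt9a, whose transcript rose, has 58 CpGs and 1 marked.

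No cytosine was listed in the promoters of Wnt7a (chr6:91411304-91411603, minus strand), Dkk2 (chr3:132085042-132085341, plus strand) and the first start of Lef1 (chr3:131110047-131110346, plus strand). They are shown because the methylation table holds no value there. Wnt7a is the ligand gene whose start was chosen with earlier results known. Dkk2 and Lef1 are the Wnt genes with the largest rise and the largest fall in RNA-seq. Capitals mark CCGG, the MspI site.
Wnt7a: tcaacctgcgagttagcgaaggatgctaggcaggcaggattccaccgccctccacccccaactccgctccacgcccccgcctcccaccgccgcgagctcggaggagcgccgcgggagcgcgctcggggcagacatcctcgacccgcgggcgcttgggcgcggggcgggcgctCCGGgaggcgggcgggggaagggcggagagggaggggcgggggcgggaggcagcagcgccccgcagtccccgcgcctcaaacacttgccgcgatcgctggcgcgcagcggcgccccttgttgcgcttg
Dkk2: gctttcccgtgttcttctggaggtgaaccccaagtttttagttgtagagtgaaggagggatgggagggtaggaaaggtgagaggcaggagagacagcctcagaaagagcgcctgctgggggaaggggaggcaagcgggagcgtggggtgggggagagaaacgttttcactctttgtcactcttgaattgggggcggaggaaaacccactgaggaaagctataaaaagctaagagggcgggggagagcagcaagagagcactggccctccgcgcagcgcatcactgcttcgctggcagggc
Lef1: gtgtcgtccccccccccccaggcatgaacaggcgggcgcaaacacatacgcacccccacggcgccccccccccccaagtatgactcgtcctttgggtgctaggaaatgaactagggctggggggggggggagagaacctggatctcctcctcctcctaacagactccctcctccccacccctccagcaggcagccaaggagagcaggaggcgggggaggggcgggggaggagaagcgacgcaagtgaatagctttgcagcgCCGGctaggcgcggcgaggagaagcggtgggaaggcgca
Wnt7a and Lef1 hold 1 such site each and Dkk2 none, while Wnt9a holds 6. The Wnt7a promoter has 42 CpGs and that of Dkk2 has 11. CCGG occurred in 88.1% of Wnt promoters and in 52.8% of all 32851 promoters of this length, and the median number of CpGs was 25.5 and 7. The letters CTTTGA, the core that Tcf and Lef factors bind, stood on either strand in 7 of the 42 Wnt promoters and in 5257 of the 32851. They were in promoters of Fzd1, Wnt11, Dkk1, Ror1, Frzb, Lef1 and Wnt5b. For Lef1 this was the promoter of the start at 131156294, not that shown above, and for Wnt5b that of the start at 119449386.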

How the data were processed

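RNA-seq and RRBS were each done on 2 clones with 14-3-3ε and 2 control clones. Per the submitters' processing notes, Trim Galore, Bismark, Bowtie2, methylKit, TopHat2, HTSeq and DESeq2 were used with build mm10, versions and settings not given in the sources used here. The authors deposited for each gene a mean level, a signal read as counts over size factors, with log2 fold changes and their standard errors, a test statistic (a score), p-values and adjusted p-values. For each cytosine the authors deposited p-values, q-values and differences in percentage points, a score that can be negative.

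Calls used the authors' adjusted p under 0.05 for genes and their q under 0.05 for cytosines. After 253 duplicate lines were removed, cytosines were averaged without weights. Whole reads per library were solved from the deposited means with numba 0.67.0 and Python 3.11.15, a step added after seeing the data and tested on simulated data. Total counts per clone are not in the files, and RRBS coverage and the treatment of clones in the methylation test are unknown here, so no interval is given. The RNA-seq p-values measure the spread between 2 clones a group, and what those of RRBS measure is not given here. Alternatives were other thresholds, window widths and an adjustment over all genes with a p-value. The named genes are every Wnt gene with an adjusted p, the 5 of highest mean among those without one, those at 0, called pathway genes and, for methylation, Wnt7a and the 6 genes with the most calls, with a tie at the end. Others were named after values were seen. The Wnt genes, gene lists and windows were chosen with earlier results of these data known.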

Additional observations from a re-analysis of the deposited data

How the results depend on the processing

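With an adjusted p under 0.01, 4 Wnt genes rose in place of 7, without Wnt9a, Sfrp1 and Ryk. Lef1 stayed called as lower under each of the 4 alternatives run on expression. These reuse the deposited fold changes and p-values, so they could not reverse a direction. The mean at the Wnt7a start stayed negative under each of its alternatives. All of these reuse cytosines of the main window, and the stretch was chosen with earlier results known. The unchanged sign is therefore a description and no separate evidence. Adjusting over all 17478 genes with a p-value called 1037 of them in either direction. Among these were 7 Wnt genes higher and 1 lower, and 7 of the other pathway genes higher and 3 lower, without Apc2, Tcf7l2 and Scrib. For the other alternatives the share called over all genes or cytosines was not computed, so the moves below cannot be set against it. Of the other pathway genes 5 rose and 1 fell at 0.01, and 2 rose and 1 fell where at least 2-fold was required as well, against 9 and 4. At the Wnt7a start 1 cytosine was lower at q under 0.01 and 1 within 500 bp, against 3, and the mean was -24.8 points with both strands of a CpG averaged, -13.6 within 500 bp and -11.9 within 2000 bp, against -21.8. Around all Wnt genes 40 cytosines were higher and 66 lower at q under 0.01, 35 and 52 with a difference of at least 25 points, and 90 were lower within 500 bp, against 97 and 136. Reading both annotated ends of every gene, chosen after seeing the data, gave 91 and 125. The narrower width leaves fewer cytosines, and the cause of the other moves was not tested. No paired analysis was possible because the groups share no clone number and the files hold no column per library, so leaving out each clone was not run either.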
